A study of Mus musculus with 6 samples.

Results

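The TGF-beta pathway was followed in cells of the mouse lung through 10 of the 26890 genes in the count table. They were picked by gene symbol: the ligands Tgfb1, Tgfb2 and Tgfb3, the receptors Tgfbr1, Tgfbr2 and Tgfbr3, the signal transducer Smad3, and Smad7, Skil and Pmepa1, genes that TGF-beta signalling itself induces and whose products restrain it. The samples were 3 libraries from saline-treated and 3 from C1q-treated C57BL/6 WT mice, with C1q given into the trachea at 20 µg per mouse and lungs taken at day 3. C1q is the recognition molecule of the classical complement pathway. The sources used here give neither age nor sex, and do not say that each library came from a separate animal, so the p-values measure the spread between these libraries, which may be technical. Saline libraries were identified by their treatment label alone, since the protocol text attached to them mentions C1q, and there was no control protein.

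TGF-beta is made as an inactive precursor that stays bound to its own propeptide and to latent TGF-beta binding proteins in the matrix until integrins, proteases or other factors release it. The free dimer binds the type II receptor, which recruits and phosphorylates the type I receptor, and this in turn phosphorylates the transducers Smad2 and Smad3, which enter the nucleus with Smad4. In lung the pathway is known for driving matrix production by fibroblasts, and most cell types of the organ can send and receive the signal. TGF-beta activity is set largely by release of the stored ligand and by phosphorylation, neither of which a transcript count measures.

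The libraries held 2227619 to 3650793 counts each, and read the 5′ ends of polyadenylated transcripts. Values are given as CPM, counts relative to library size, scaled between libraries by the TMM method. The dissociated lung cells carried markers of all 14 cell types looked for, and 0 of the listed markers had no count. Summed over the 10 endothelial markers the level was 3561 to 4056 CPM in saline and 3061 to 3726 CPM in C1q, and over the 9 fibroblast markers 2165 to 2344 and 2924 to 2998 CPM. In such bulk samples, fewer cells of a type and less RNA per cell cannot be told apart.

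None of the 10 genes passed the test between C1q and saline. In edgeR's quasi-likelihood test, with Benjamini-Hochberg adjustment over the 13473 genes tested and a threshold of 0.05, 0 of 10 were called, where 0.0297% of all genes were. At an unadjusted p under 0.05 the count was also 0 of 10, against 8.16% of all genes, and DESeq2 and limma-voom called 0 of 10 after adjustment, against 0.238% and 0.0223%. Unadjusted, limma-voom had 1 of the 10, Tgfb1, under 0.05, and DESeq2 had 0. The estimates were positive for 7 genes and negative for 3, from -0.27 to 0.33 on the log2 scale, with a median of 0.23 against -0.01 for all genes tested. Positive estimates made up 70.0% of these genes and 48.2% of all genes. Adjusted p-values ran from 0.606 to 0.998. All 3 C1q libraries lay on one side of all 3 saline libraries for 3 of the 10, Tgfb1 above and Tgfbr3 and Smad7 below, and for 14.1% of all genes (8.12% above and 5.96% below).

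The data did limit how large a change could have been. The 95% intervals of the fold change lay between 0.659 and 1.64 for all 10 genes, so each excluded a doubling or a halving in these libraries, which held for 72.6% of all genes tested. The members were counted 58 to 841 times per library, and the biological coefficient of variation fitted to each was 14.3% to 17.0%.

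**Figure D1:**
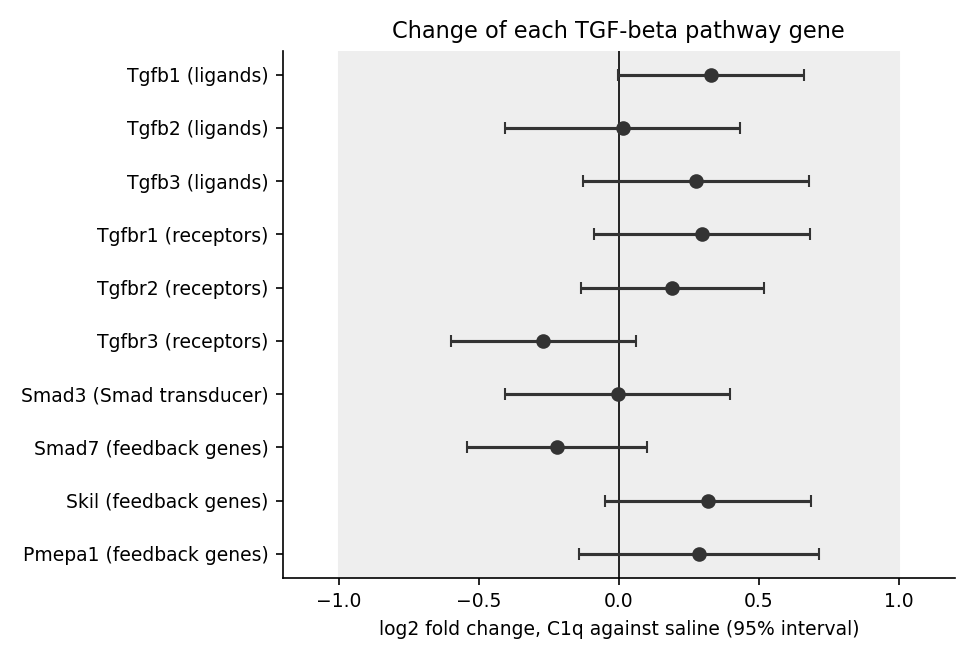
Log2 fold change (x axis) of each of the 10 TGF-beta pathway genes (y axis), C1q against saline, with 3 libraries a group. Points are edgeR estimates, bars their 95% intervals, and the grey band spans changes of less than 2-fold in either direction; every bar lies inside the band and crosses 0.

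Of the ligands, Tgfb1 was the one whose groups did not overlap. Tgfb1 encodes the isoform best known from immune cells, platelets and fibrosis. It stood at 81.7, 72.9 and 64.6 CPM in saline replicates 1 to 3 and at 96.5, 94.5 and 84.4 CPM in C1q replicates 1 to 3. Each C1q library was thus above each saline library, but the gap between the highest saline and the lowest C1q library was narrow. The mean went from 73.0 ± 8.52 to 91.8 ± 6.49 CPM (SD, n = 3 each), a log2 fold change of 0.33 ± 0.15 (SE) with a 95% interval of -0.0020 to 0.66, which missed the threshold (edgeR, unadjusted p = 0.0512, adjusted p = 0.606). It was the smallest p of the 10. The unadjusted p was 0.0468 in limma-voom and 0.0405 in edgeR without saline replicate 1 (adjusted p = 0.691 and 0.702), and 0.110 in DESeq2. In the other edgeR fits with 1 library left out, the unadjusted p was higher. It ran from 0.0535 without C1q replicate 3 to 0.148 without saline replicate 3, where the log2 fold change was 0.25.

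Tgfb2, an isoform with a prominent part in heart and epithelial development, was at 21.5, 29.1 and 30.3 CPM in saline and at 27.4, 26.1 and 28.0 CPM in C1q. The C1q libraries sat inside the saline range. The log2 fold change was 0.01 ± 0.19 and its sign was not stable, being -0.13 without saline replicate 1, the lowest library. Tgfb3, the isoform tied to palate closure and lung maturation, was at 24.8, 23.5 and 23.2 CPM in saline and at 29.9, 24.3 and 32.5 CPM in C1q. C1q replicate 2 fell within the saline range while the others lay above it, and the log2 fold change was 0.28 ± 0.18 (edgeR, adjusted p = 0.683).

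The make-up of the ligand counts was compared within each library, where scaling between libraries plays no part. These shares compare libraries and not the genes with each other. Tgfb1 made up 63.8%, 58.1% and 54.7% of the ligand counts in saline and 62.8%, 65.2% and 58.3% in C1q. The groups overlapped, and the difference in mean share was 3.20 percentage points (exact permutation test, two-sided, p = 0.4, where 0.1 is the smallest p that 3 against 3 allows). The 3 ligands together had 310 to 556 counts per library.

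Because the libraries read transcript starts, the promoters of Tgfb1, whose groups separated, and of Tgfb2, whose groups overlapped, are shown side by side, as the 250 bases before the RefSeq start on GRCm38.p6. Capitals mark matches, on either strand, to TATAAA (the TATA box), GGGCGG (the GC box bound by Sp1-type factors) and CAGAC (the core of the Smad-binding CAGA element). No match overlaps another in the stretches printed.
Tgfb1, chr7:25686752-25687001, plus strand: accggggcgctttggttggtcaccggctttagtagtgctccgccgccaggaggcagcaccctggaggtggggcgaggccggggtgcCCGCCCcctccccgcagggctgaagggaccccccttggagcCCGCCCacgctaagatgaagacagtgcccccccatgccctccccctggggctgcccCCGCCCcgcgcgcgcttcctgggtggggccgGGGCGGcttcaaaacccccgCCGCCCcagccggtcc
Tgfb2, chr1:186705990-186706239, minus strand: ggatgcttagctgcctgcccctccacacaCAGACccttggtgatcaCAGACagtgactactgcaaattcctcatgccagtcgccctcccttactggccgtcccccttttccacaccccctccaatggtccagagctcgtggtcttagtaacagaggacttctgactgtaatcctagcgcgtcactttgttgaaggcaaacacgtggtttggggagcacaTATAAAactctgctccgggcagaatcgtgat

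The Tgfb1 window, with 75.2% G and C, held 5 GC boxes, the nearest starting 16 bases before the start site, and neither TATAAA nor CAGAC. The Tgfb2 window, with 53.6% G and C, held TATAAA beginning 31 bases before the start and CAGAC at 221 and 204 bases before it, and no GC box. Of all 32851 RefSeq windows of this length, 12.4% held TATAAA, 32.7% GGGCGG and 42.2% CAGAC on either strand, so a CAGAC match is common. In the 13408 windows of genes tested here the shares were 7.06%, 55.1% and 40.6%. Windows were matched for 5 of the 10 genes. Besides Tgfb2, CAGAC was found in the window of Tgfbr2 and in one of the windows of Tgfbr1. These matches describe the letters in the windows and say nothing of binding. They say nothing of a response to C1q either. Neither Tgfb1 nor Tgfb2 was called, and the pair was chosen by whether their groups overlapped.

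The kinase receptors had positive estimates and the co-receptor a negative one, with 0 of 3 past the threshold. Tgfbr1, the type I receptor kinase, was at 62.7, 51.4 and 64.6 CPM in saline and at 62.8, 69.1 and 88.9 CPM in C1q. The difference leaned on the high value of C1q replicate 3, as the log2 fold change of 0.30 ± 0.18 was 0.15 without it. Tgfbr2, the type II receptor that binds the ligand first, was at 216, 199.98 and 237 CPM in saline and at 233, 238 and 276 CPM in C1q, and the groups overlapped (log2 fold change 0.19 ± 0.15, and 0.12 without C1q replicate 3).

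Tgfbr3 encodes betaglycan, a membrane proteoglycan without a kinase that presents ligand, above all the Tgfb2 product, to the type II receptor. It was lower in every C1q library than in any saline library, at 135, 132 and 155 CPM in saline against 104, 128 and 118 CPM in C1q. The means were 140.8 ± 12.4 and 117 ± 12.1 CPM, a log2 fold change of -0.27 ± 0.15 with a 95% interval of -0.60 to 0.06 that missed the threshold (edgeR, adjusted p = 0.637). C1q replicate 2 came within a few CPM of the lowest saline library.

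The receptor counts were also set against each other within each library, a ratio chosen after the values were seen and therefore given without a test. Per 100 Tgfbr2 counts there were 62.7, 66.0 and 65.4 Tgfbr3 counts in saline and 44.8, 54.0 and 42.7 in C1q. The saline libraries lay close together and all C1q libraries below them. For Tgfbr1 the same ratio was 29.1, 25.7 and 27.2 in saline and 27.0, 29.1 and 32.2 in C1q, with overlap.

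**Figure D2:**
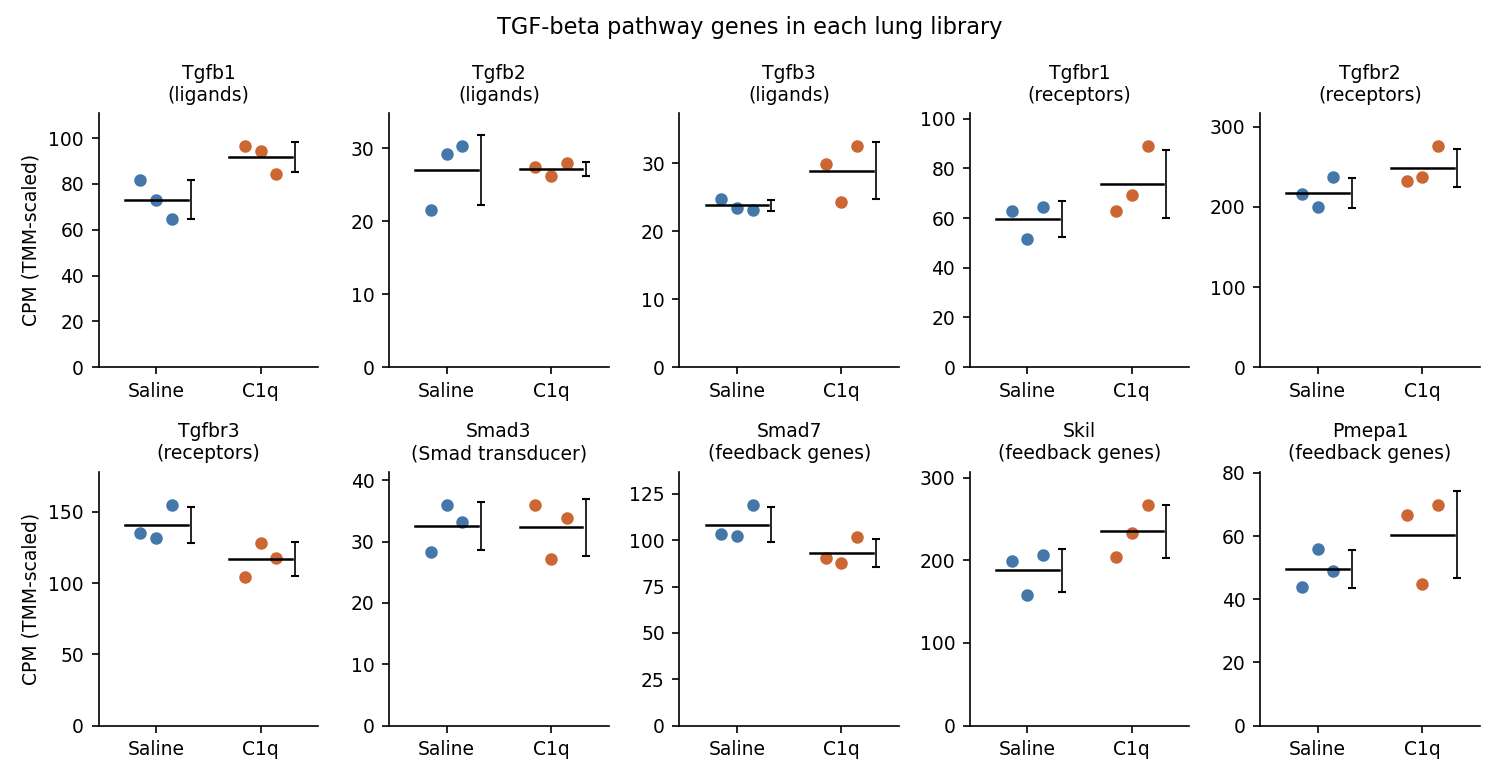
Level of each gene in CPM (y axis, from 0) in the saline (blue) and C1q (orange) libraries, with 1 point per library in the order of replicates 1 to 3, a line at the mean and a bar of 1 SD to either side (n = 3). The groups are separated for Tgfb1, Tgfbr3 and Smad7 and overlap for the other genes.

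Smad3, the transducer most tied to matrix genes, had nearly the same mean in both groups. It was at 28.3, 36.0 and 33.2 CPM in saline and 36.0, 27.2 and 33.9 CPM in C1q, and the ranges were nearly the same. The log2 fold change was -0.0036 ± 0.18, with a 95% interval of -0.41 to 0.40, and ranged from -0.10 to 0.11 with 1 library left out. Smad3 can also be regulated by phosphorylation without any change in its transcript.

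The feedback genes, which are commonly read as signs of recent TGF-beta signalling, did not share a direction. Smad7, whose product blocks the type I receptor and brings ubiquitin ligases to it, was at 103, 102 and 119 CPM in saline and at 90.2, 87.5 and 102 CPM in C1q. All C1q libraries were below all saline libraries, the closest by under 1 CPM. The means were 108 ± 9.45 and 93.1 ± 7.48 CPM, a log2 fold change of -0.22 ± 0.15 (edgeR, adjusted p = 0.683), which was -0.15 without saline replicate 3, the highest library.

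Skil encodes SnoN, a nuclear repressor of Smad complexes that is degraded and then re-induced on signalling. It was at 199, 158 and 207 CPM in saline and at 204, 233 and 267 CPM in C1q. C1q replicate 1 lay just under the highest saline library and the others above all of them. The log2 fold change was 0.32 ± 0.17 (edgeR, unadjusted p = 0.0837, adjusted p = 0.625). Without saline replicate 3 or without C1q replicate 1 the unadjusted p in edgeR was 0.0480 in each fit (adjusted p = 0.497 and 0.854). Other libraries moved Skil the other way. Its log2 fold change was 0.22 without C1q replicate 3 and 0.21 without saline replicate 2 (edgeR, unadjusted p = 0.271 and 0.244).

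Pmepa1, which encodes a membrane protein that holds Smad2 and Smad3 away from the receptor, was at 44.0, 55.9 and 48.9 CPM in saline and at 66.7, 44.8 and 70.0 CPM in C1q. C1q replicate 2 was as low as the saline libraries and the others were above them. The log2 fold change was 0.29 ± 0.19, and depended on which C1q library was left out. It was 0.46 without C1q replicate 2 (edgeR, unadjusted p in that fit 0.0303, adjusted p = 0.797) and 0.18 without C1q replicate 3.

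Smad7 was also set against Skil within each library, again a ratio chosen after the values were seen and not tested. Smad7 had 51.9, 64.7 and 57.6 counts per 100 Skil counts in saline and 44.2, 37.5 and 38.0 in C1q. All C1q libraries were lower. Pmepa1 counts per 100 Skil counts ran from 22.1 to 35.3 in saline and from 19.2 to 32.7 in C1q, with no separation.

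**Figure D3:**
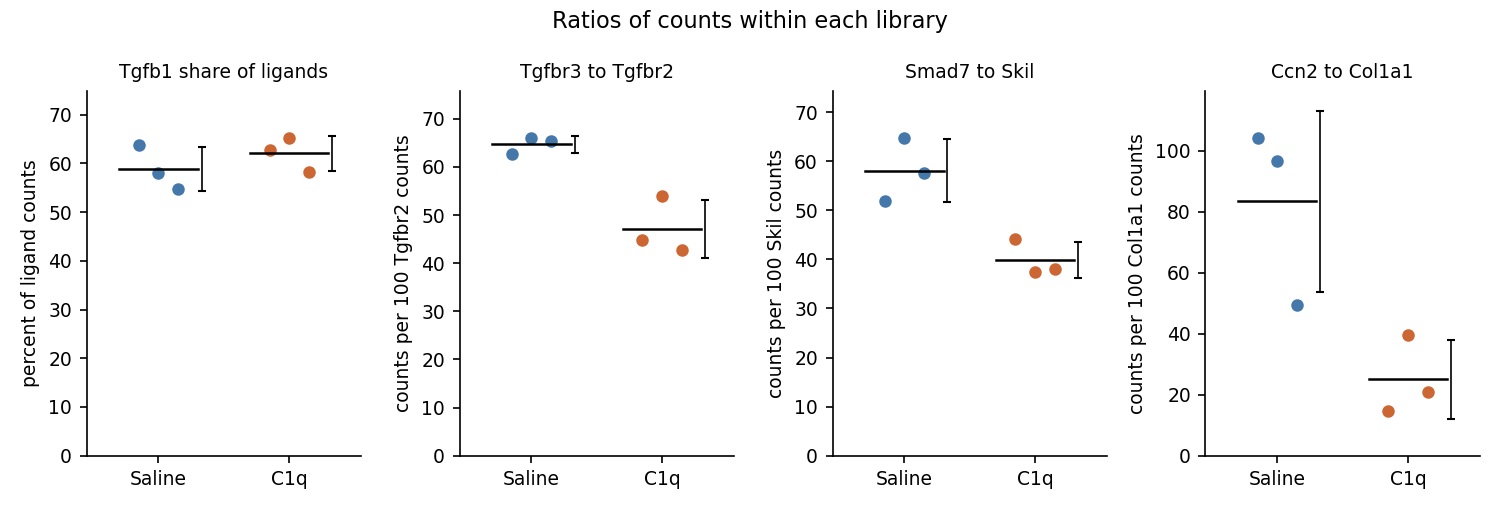
Ratios of counts within each library (y axes, from 0) for saline (blue) and C1q (orange), with 1 point per library, the mean as a line and 1 SD as a bar (n = 3). Tgfbr3 to Tgfbr2, Smad7 to Skil and Ccn2 to Col1a1 are lower in all C1q libraries than in any saline library, while the Tgfb1 share of ligand counts overlaps. The gene pairs of the separated ratios were chosen after the values were seen and were not tested. Each sets a gene with a negative estimate over one with a positive estimate, a choice that favours separation.

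For the genes whose groups separated, the summed markers of some cell types had group means that lay in the same direction; the endothelial sums overlapped between groups, and the fibroblast sums did not. The endothelial list, in which Tgfbr3 and Smad7 are not members, had 9 of 10 negative log2 fold changes with a median of -0.25 and 0 called. Airway, B cell and natural killer sums had lower means as well, as did the following lists. The smooth muscle and pericyte markers summed to 741 to 819 CPM in saline and 627 to 751 CPM in C1q (7 of 10 negative), T cell markers to 45.2 to 67.8 and 40.6 to 50.6 CPM (5 of 5 negative), and erythroid markers to 117 to 273 and 37.9 to 190.5 CPM (4 of 4 negative). Platelet markers, at 21.3 to 29.1 CPM in saline and 17.7 to 21.2 CPM in C1q, were lower in every C1q library, though 2 of 3 tested had positive estimates. The closest libraries were nearly level, at 21.29 CPM in saline replicate 3 and 21.16 CPM in C1q replicate 2. Per 100 endothelial marker counts, Tgfbr3 had 3.34, 3.49 and 4.35 counts in saline and 3.28, 3.45 and 3.85 in C1q, and Smad7 had 2.54, 2.71 and 3.35 against 2.83, 2.35 and 3.32. On that scale the groups overlapped for both genes. Their separation in CPM was narrow to begin with, so an overlap after division by another noisy sum decides nothing. These ratios are given without a test, and their bearing on cell composition was not tested.

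Beside the higher Tgfb1 counts, 3 marker sums were higher in every C1q library than in any saline library. These were the sums of fibroblasts, of alveolar macrophages and of monocytes with interstitial macrophages. Alveolar macrophage markers summed to 929 to 2427 CPM in saline and 2541 to 3110 CPM in C1q, with 4 of 6 members positive. Their median log2 fold change was only 0.02, so the sum did not stand for the list as a whole. The median was 0.34 for fibroblast markers and 0.37 for monocyte and interstitial macrophage markers. Neutrophil markers summed to 51.1 to 94.3 and 60.5 to 104.5 CPM, with 4 of 5 positive. The monocyte and interstitial macrophage markers summed to 249 to 337 CPM in saline and 356 to 435 CPM in C1q, with 7 of 8 tested members positive and 0 called. Tgfb1 had 24.2, 23.1 and 26.0 counts per 100 counts of these markers in saline and 22.2, 24.7 and 23.7 in C1q, and 3.48, 3.37 and 2.93 against 3.26, 3.23 and 2.82 per 100 fibroblast marker counts. Both ratios overlapped between the groups. The fibroblast list includes Col1a1 and Col1a2, which are also among the textbook targets given below. Their means went from 165 to 328 CPM and from 241 to 436 CPM, and that of the fibroblast sum from 2238 to 2961 CPM. The part of cell composition in these results was not tested.

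The genes with the pattern most like Tgfb1 across the 6 libraries were Ppp4c, the catalytic subunit of a protein phosphatase, Ppt1, a lysosomal thioesterase, and Serpinf1, a secreted serpin. Their centred log2 CPM lay at a root mean square distance of 0.029, 0.034 and 0.041 from that of Tgfb1, against a median of 0.27 over 7735 genes with a mean of at least 20 CPM. Within a distance of 0.1 lay 159 genes.

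Other genes of the pathway were taken from 5 lists, and 0 of the 63 tested passed in edgeR. At an unadjusted p under 0.05 there were 8 of 63, against 8.16% of all genes. Among 14 genes for latency and activation of the ligand, 12 had positive estimates (median log2 fold change 0.13), where 48.2% of all genes did. An unadjusted p under 0.05 was found for 2 of the 14, against 8.16% of all genes. These were Itgb6, the epithelial integrin chain that releases TGF-beta from its propeptide, at 26.0, 22.7 and 23.9 CPM in saline and 41.2, 29.3 and 49.7 CPM in C1q, and Fbn1, the microfibril protein on which latent complexes are stored, at 117, 107 and 132 CPM against 154, 185 and 206 CPM. For both genes all C1q libraries were above all saline libraries, as for 8.12% of all genes. Their log2 fold changes were 0.72 ± 0.21 and 0.61 ± 0.16 and missed the threshold (edgeR, adjusted p = 0.501 and 0.410). The latent TGF-beta binding protein genes ran from -0.10 ± 0.15 for Ltbp4 and -0.04 ± 0.19 for Ltbp3 to 0.09 ± 0.20 for Ltbp1 and 0.26 ± 0.21 for Ltbp2, and 0 of these 4 had an unadjusted p under 0.05. These estimates moved with single libraries. Ltbp1 was at 0.34 without saline replicate 3 and at -0.06 without saline replicate 2. Ltbp2 was at 0.53 without saline replicate 3 and at 0.13 without saline replicate 1. Ltbp3 was at 0.11 without C1q replicate 2.

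Receptor partners and genes of receptor turnover had a median of -0.11, with 7 of 12 negative and 0 at an unadjusted p under 0.05. The lowest was Eng, which encodes endoglin, an endothelial co-receptor related to betaglycan, at 398, 429 and 413 CPM in saline and 278, 414 and 269 CPM in C1q. C1q replicate 2 was at the saline level, and the log2 fold change of -0.37 ± 0.18 was -0.59 without it (edgeR, adjusted p in the full fit 0.616). Zfyve9, which encodes the Smad anchor SARA, was at -0.35 ± 0.19, and at -0.15 without saline replicate 3. Dab2, an endocytic adaptor, was at 0.35 ± 0.19 and Bambi, a decoy receptor, at 0.15 ± 0.18. Dab2 was at 0.20 without C1q replicate 3, and Bambi at 0.0026 without saline replicate 3 and 0.26 without saline replicate 2.

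Among 11 tested Smad proteins and nuclear partners the median was -0.06, and 0 had an unadjusted p under 0.05. Smad2, the other receptor-activated Smad of the pathway, was at 0.29 ± 0.20 and the corepressor Tgif1 at 0.26 ± 0.15, while the acetyltransferases Crebbp and Ep300 were both at -0.26 ± 0.16. Smad2 ranged from 0.15 without C1q replicate 3 to 0.48 without saline replicate 3, and both acetyltransferase genes were at -0.14 without saline replicate 3. In the activin branch, which uses Smad2 and Smad3 through its own receptors, the median over 7 tested genes was -0.12. Acvr2b, an activin receptor, was at -0.56 ± 0.28, Acvr2a at -0.15 ± 0.17, the activin subunit gene Inhbb at 0.37 ± 0.30 and the activin-binding Fstl3 at 0.15 ± 0.25, with 0 at an unadjusted p under 0.05. Single libraries weighed heavily on these: Acvr2b was at -0.32 without saline replicate 3, Acvr2a at -0.04 and Inhbb at 0.10 without C1q replicate 1, and Fstl3 at -0.0227 without saline replicate 3.

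The textbook targets of the pathway ranged from -0.76 to 1.30 on the log2 scale, and 0 of 19 tested passed in edgeR. Of the 19, 14 were positive with a median of 0.09, and 5 higher and 1 lower had an unadjusted p under 0.05, against 4.22% and 3.94% of all genes. The higher end was fibrillar collagen: Col3a1 went from 329 ± 102 to 808 ± 214 CPM and Col1a1 from 165 ± 38.2 to 328 ± 62.2 CPM (edgeR, adjusted p = 0.245 and 0.277). The lower end was Ccn2, a matricellular growth factor, at 140, 148 and 103 CPM in saline and 57.2, 104.8 and 68.6 CPM in C1q, with C1q replicate 2 overlapping the lowest saline library (log2 fold change -0.76 ± 0.23, edgeR adjusted p = 0.512). Snai2, a transcription factor of mesenchymal cells, was at -0.50 ± 0.27, and at -0.31 without saline replicate 3. Ccn2 counts per 100 Col1a1 counts, a ratio chosen after the values were seen, were 104, 96.6 and 49.4 in saline and 14.7, 39.5 and 20.8 in C1q.

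The collagens depended on the test and its settings. DESeq2, which called 0.238% of all genes, called Col3a1, Col1a1 and Col1a2 (adjusted p = 0.000282, 0.00578 and 0.00453). Without saline replicate 3, edgeR called 10 of 13763 genes, among them Col3a1 and Col1a1 (adjusted p = 0.0438 and 0.0440). With no low-count filter edgeR called 373 genes, these collagen genes included. Targets called were 0 in limma-voom, in edgeR with other scalings or the stricter filter, and without any other single library.

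**Figure D4:**
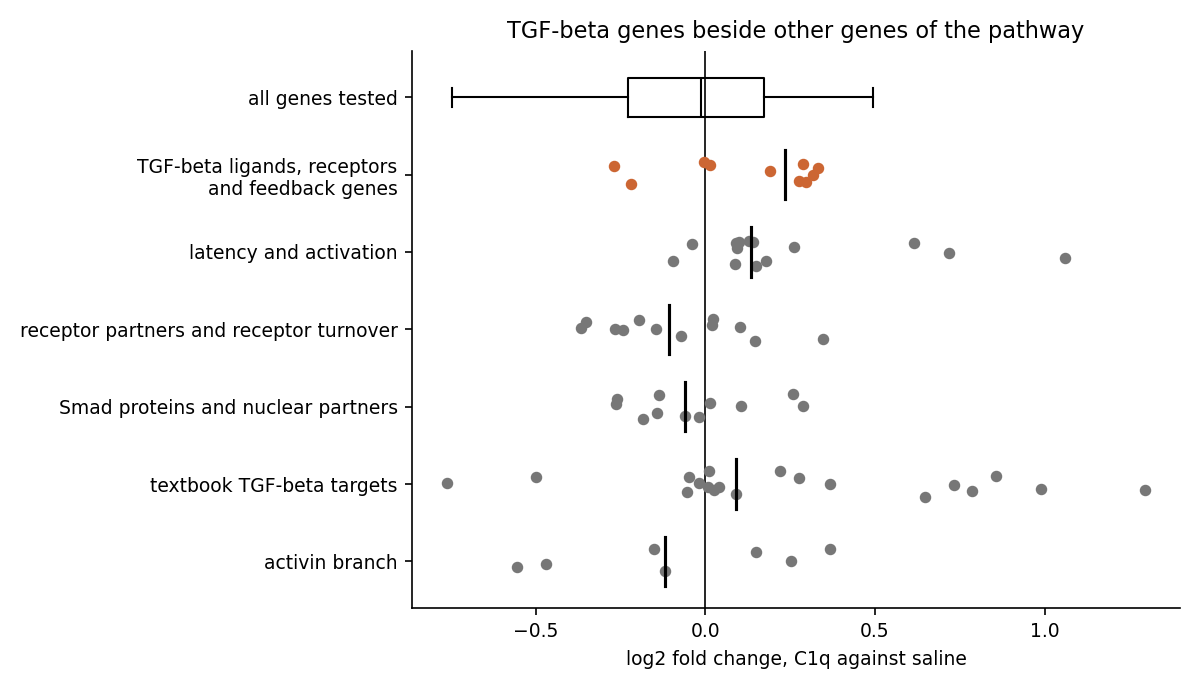
Log2 fold change, C1q against saline (x axis), of each tested gene in the TGF-beta group (orange) and in 5 further pathway lists (grey), with 1 point per gene and a black line at each list's median. The box shows the quartiles and median of all 13473 genes tested, with whiskers at the 5th and 95th percentiles; the 10 TGF-beta genes lie inside the whiskers, and the targets reach from -0.76 to 1.30.

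On GRCm38 in GENCODE M21 the ligand genes are at chromosome 7 from 25687002 to 25705077 (Tgfb1), chromosome 1 from 186622792 to 186705989 (Tgfb2) and chromosome 12 from 86056745 to 86079041 (Tgfb3). The receptor genes are at chromosome 4 from 47353222 to 47414931 (Tgfbr1), chromosome 9 from 116084293 to 116175360 (Tgfbr2) and chromosome 5 from 107106570 to 107289629 (Tgfbr3). Smad3 is at chromosome 9 from 63646767 to 63757994, Smad7 at chromosome 18 from 75367529 to 75395935, Skil at chromosome 3 from 31095058 to 31122577 and Pmepa1 at chromosome 2 from 173224458 to 173276533. All 10 are annotated as protein-coding. Tgfb3 overlaps Ttll5 on the opposite strand, and Tgfb2 and Tgfb3 have an annotated partner across their starts, so with strand handling not given their counts could include reads of those genes.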

How the data were processed

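Lung cells from 3 saline and 3 C1q samples were dissociated with Liberase and DNase, taken from the middle layer of a Percoll gradient and made into 5′-end libraries, per the labels' protocols. The authors deposited counts, whole numbers per gene symbol and library without normalization. Tools listed in the submitters' processing notes are Bowtie2 2.4.2 and cutadapt 2.1.0, with GRCm38 as build. Counting step, annotation, strand handling and molecular identifiers: not given in the sources used here. Samples were grouped by treatment label and numbered in the order of deposition, which pairs nothing. In each of 15 library pairs the counts differed beyond counting noise (chi-square per degree of freedom 5.19 to 16.4). The highest value was between saline replicates 2 and 3, while saline replicate 3 against C1q replicate 3 gave 5.83.

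Of 26890 genes, filterByExpr kept 13473, all 10 members among them. After TMM scaling they were tested in edgeR 4.0.16 (glmQLFit and glmQLFTest, two-sided, treatment the only term, Benjamini-Hochberg over all genes kept). The code was also run on simulated counts with the same dispersion for every gene. That setting is simpler than these data, so the run does not vouch for the intervals given here. Alternatives were upper-quartile and RLE scaling, library size only, no and a stricter filter (10 CPM in 3 libraries), DESeq2 1.42.0, limma-voom 3.58.1 and leaving out each library. Named genes were the 10 members and, in each list, the 2 highest and 2 lowest log2 fold changes at a mean of at least 10 CPM. The nearest patterns were the 3 genes closest to the member with the smallest p. Col1a2 falls outside the rule for named genes and was chosen with its values in view. Ltbp1 and Ltbp2 also fall outside it and were named beside Ltbp3 and Ltbp4. The members and lists were chosen with earlier results of these data known. Promoter sequences are from RefSeq on GRCm38.p6.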

Additional observations from a re-analysis of the deposited data

How the results depend on the processing

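No member was called in any of 13 alternatives, the smallest adjusted p being 0.494 (Tgfb1, edgeR without saline replicate 2). Of the 10 genes 8 kept the sign of their log2 fold change in every one, and 122 of 130 values kept sign and side of the threshold. The exceptions lay near 0. Tgfb2 was at -0.0237 with library size only, -0.0100 with the stricter filter, and from -0.13 to 0.11 with 1 library left out (negative when that was saline replicate 1 or C1q replicate 3). Smad3 was at 0.0296 with no filter on low counts and from -0.0960 to 0.11 with 1 library left out (positive when that was saline replicate 2, saline replicate 3 or C1q replicate 2). Over all genes 4 were called, against 373 with no filter, 32 with DESeq2 and 0 to 10 with 1 library left out (0 when that was saline replicate 1, 10 for saline replicate 3, 1 for C1q replicate 1 and 2 for C1q replicate 2). With no filter, 2 latency genes (Fbn1 and Itgb6) and 6 targets were called, with DESeq2 3 targets, and with 1 library left out 0 to 2 targets. The cause was not tested. The difference in Tgfb1 share was 1.14 to 5.67 percentage points with 1 library left out, and 0.703 when counted against Tgfb3 alone. No paired analysis was possible because the labels give the groups no shared replicate numbers. With 3 libraries a group, changes of the size seen in the members could not be told from the spread between libraries.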
